A study of Rattus norvegicus with 6 samples.

Results

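Voltage-gated potassium channels of the Kv1 to Kv9 families are described here by 9 pore-subunit genes, Kcna1, Kcna2, Kcna4, Kcnb2, Kcnc1, Kcnc4, Kcnd1, Kcnd3 and Kcns1, which were picked from the deposited table by their gene symbols. All 9 were found among the 22864 genes of the table, and all 9 passed the filter on low counts, which left 15531 genes. The other 18 Kv1 to Kv9 genes of the family were read beside them as a list. Bulk RNA sequencing covered ipsilateral L4 to L6 dorsal root ganglia (DRG), the ganglia that hold the cell bodies of hind-limb sensory neurons, from wild-type (WT) rats. Sham+Veh rats were anaesthetised with pentobarbital without a ring and received vehicle. CPIP+Veh rats, under the same anaesthesia, had 1 hind limb ligated with an O-ring close to the ankle joint for 3 h, known in the field as chronic post-ischaemia pain, and received vehicle. CPIP+ETA rats had the same ring and received etanercept, a TNF-binding receptor fusion protein. Injections were intrathecal and daily from 2 days after the procedure, and tissue was taken at 7 days in every group. The ring size in the protocol is that for male rats, and the sources used here give neither strain nor age. Each group holds 2 libraries, numbered 1 and 2. Nothing in the labels says whether these came from separate or pooled rats, so the p-values measure only the spread between libraries, which may be technical.

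Kv channels are tetramers that open when the membrane depolarises and let potassium out, which ends the action potential and sets how readily a neuron fires again. In sensory neurons Kv1 channels act near threshold and, in myelinated axons, lie under the myelin beside the node of Ranvier. Kv2 and Kv3 channels repolarise the spike, Kv4 channels carry a fast transient current below threshold, and Kv9 subunits do not form channels alone but change the behaviour of Kv2 channels. Lower Kv transcript levels in the DRG are a known feature of rat models in which a peripheral nerve is cut or ligated, and the comparisons below ask whether the ischaemia model or etanercept moved the same genes.

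Total counts were 18285251 to 19981250 per library. All 8 neuron markers were detected in every library and summed to 11969 to 13073 CPM (a gene's reads as a share of its library total after TMM scaling), whereas 6 spinal cord markers summed to 13.7 to 23.1 CPM, with Olig1 and Opalin at 0 in at least 1 library. In bulk ganglia, fewer cells of a type and less RNA per cell cannot be told apart.

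Because methylation of CG sites at the Kcna2 promoter is a reported mode of Kv silencing in injured rat DRG, the start-site regions of the members were read for their CG content. RefSeq start-site windows of 300 bases (GRCr8 assembly, 250 bases before to 50 after the start) were matched for 6 of the 9 members. The number of CG dinucleotides was 48 in Kcnd3, 40 in Kcna2, 36 in Kcnc1, 23 in Kcns1, 19 in Kcnc4 and 1 in Kcna4. Of 33469 windows in the reference, 3.24% held at least as many CG sites as Kcna2 and 94.5% at least as many as Kcna4. For each member the first window listed was read, and Kcna2 and Kcna4 were the only Kv1 genes among the 6. Their 2 windows are printed 5′ to 3′ with each CG in capitals. Kcna2 is from chr2:197393280-197393579 on the + strand and Kcna4 from chr3:114215086-114215385 on the + strand. CG content is a property of the reference only, and methylation was not measured here.
Kcna2: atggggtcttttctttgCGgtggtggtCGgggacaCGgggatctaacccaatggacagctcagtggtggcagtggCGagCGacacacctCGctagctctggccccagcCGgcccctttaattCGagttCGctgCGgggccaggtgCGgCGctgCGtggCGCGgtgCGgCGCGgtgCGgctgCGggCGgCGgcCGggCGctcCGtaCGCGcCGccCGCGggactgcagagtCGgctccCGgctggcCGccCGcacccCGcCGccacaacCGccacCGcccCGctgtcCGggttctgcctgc
Kcna4: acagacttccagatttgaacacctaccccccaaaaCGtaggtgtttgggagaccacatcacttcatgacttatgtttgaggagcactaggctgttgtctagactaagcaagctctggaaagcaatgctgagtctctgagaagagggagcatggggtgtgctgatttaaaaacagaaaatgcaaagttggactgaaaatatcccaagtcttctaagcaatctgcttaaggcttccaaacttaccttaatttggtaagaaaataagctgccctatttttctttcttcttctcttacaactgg

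The Kv1 members did not differ detectably between groups. Kcna2 (gene identifier 25468) encodes Kv1.2, a low-threshold channel of large myelinated sensory neurons. Its level was 523 and 537.8 CPM in Sham+Veh, 509.9 and 468 in CPIP+Veh, then 564 and 521 in CPIP+ETA. Both CPIP+Veh libraries lay below both sham libraries and below both CPIP+ETA libraries, while the ranges of sham and CPIP+ETA overlapped. Group means were 530.3 ± 10.6, 489 ± 30.0 and 543 ± 30.9 CPM (SD, n = 2). The fold of CPIP+Veh over sham was 0.922 (95% interval 0.829 to 1.03; edgeR adjusted p = 0.948). The fold of CPIP+ETA over CPIP+Veh was 1.11 (0.998 to 1.24; edgeR adjusted p = 0.938). The source does not say whether counting used strand, so reads of Kcna2 and of any antisense transcript cannot be told apart.

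Kcna1 (24520), whose product Kv1.1 pairs with Kv1.2 at the axon, stood at 76.2 and 80.6 CPM in Sham+Veh, 78.5 and 77.4 in CPIP+Veh, against 95.2 and 80.6 in CPIP+ETA. Only CPIP+ETA 1 stood away from the other 5 libraries. Its fold of CPIP+Veh over sham was 0.995 (0.863 to 1.15), and its fold of CPIP+ETA over CPIP+Veh was 1.13 (0.978 to 1.30). Kcna4 (25469) encodes Kv1.4, the fast-inactivating member of the family, found mainly in small sensory neurons. Its level was 38.5 and 34.0 CPM in Sham+Veh, 32.3 and 32.0 in CPIP+Veh, then 36.4 and 34.4 in CPIP+ETA. The CPIP+Veh libraries were the lowest, as for Kcna2, at a fold of 0.886 over sham (0.774 to 1.02; edgeR adjusted p = 0.938), which was the smallest adjusted p of the 9 members in that comparison.

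**Figure D1:**
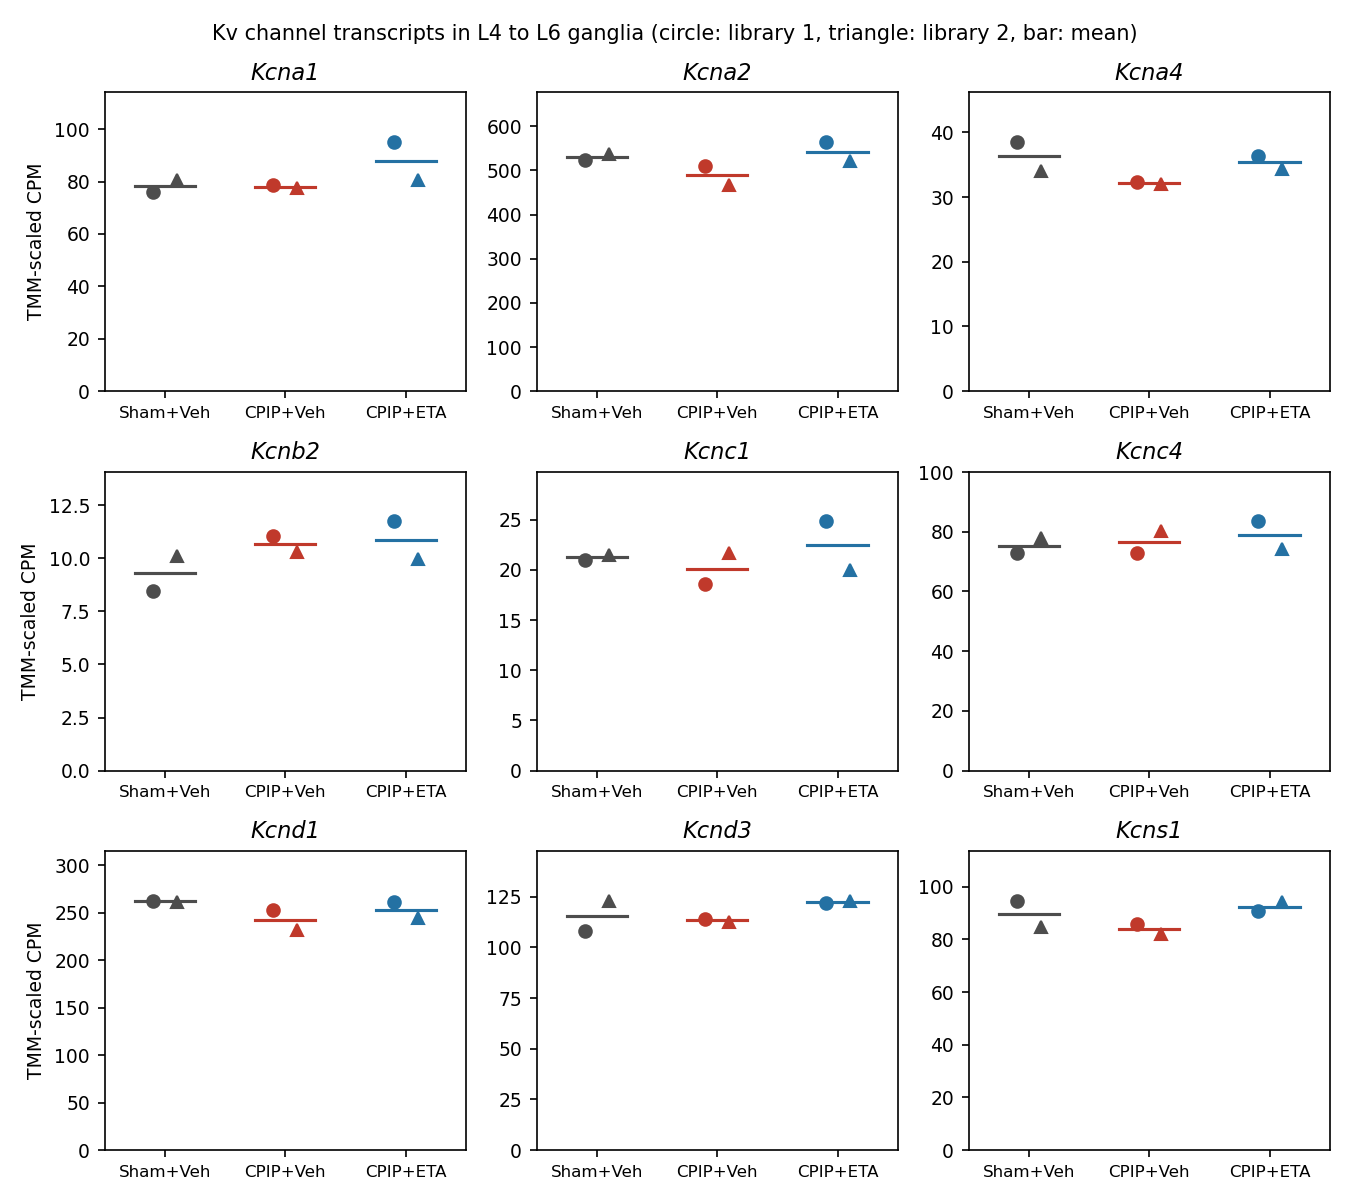
TMM-scaled CPM (y axis, from 0) of the 9 Kv genes in each library, by group; circles are library 1, triangles library 2 and bars the group mean. Libraries of a group lie as far apart as the groups do for most genes, and Kcna2 and Kcna4 are lowest in the 2 CPIP+Veh libraries.

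The Kv2 and Kv3 members gave no called difference either. Kcnb2 (117105) encodes Kv2.2, a slow delayed rectifier, and was the most thinly counted member, with 156 to 233 reads per library. It stood at 8.44 and 10.1 CPM in Sham+Veh, 11.03 and 10.3 in CPIP+Veh, against 11.7 and 9.96 in CPIP+ETA. Both CPIP+Veh libraries were above sham, and the fold of 1.15 had the highest upper bound of the members in that comparison (0.910 to 1.45). Kcnc1 (25327), the gene of Kv3.1 in fast-firing neurons, was at 21.0 and 21.5 CPM in Sham+Veh, 18.6 and 21.6 in CPIP+Veh, then 24.8 and 20.0 in CPIP+ETA, so each CPIP group spanned the sham values. Its folds were 0.947 (0.764 to 1.17) for CPIP+Veh over sham and 1.11 (0.900 to 1.38) for CPIP+ETA over CPIP+Veh. Kcnc4 (684516) encodes Kv3.4, a fast-inactivating channel that shortens the spike of nociceptors. It had 72.7 and 77.9 CPM in Sham+Veh, 72.7 and 80.2 in CPIP+Veh, against 83.5 and 74.1 in CPIP+ETA. All group pairs overlapped, and the fold of CPIP+Veh over sham was 1.01 (0.884 to 1.17).

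Kcnd1 and Kcnd3 encode Kv4.1 and Kv4.3, which carry the subthreshold transient current of the cell body. Kcnd1 (116695) was at 263 and 262 CPM in Sham+Veh, 253 and 232 in CPIP+Veh, then 262 and 244 in CPIP+ETA. Both CPIP+Veh libraries were below sham by more than the sham libraries differed, but the CPIP+Veh libraries were themselves 253 and 232, and the fold was 0.926 (0.835 to 1.03; edgeR adjusted p = 0.948). Kcnd3 (65195), which in rat is prominent in non-peptidergic nociceptors, was at 108 and 123 CPM in Sham+Veh, 114 and 112 in CPIP+Veh, against 122 and 123 in CPIP+ETA. The sham libraries spanned nearly the whole range, and the fold of CPIP+Veh over sham was 0.981 (0.875 to 1.10). Kcns1 (117023), the silent Kv9.1 subunit of large sensory neurons, was at 94.7 and 84.6 CPM in Sham+Veh, 85.9 and 82.2 in CPIP+Veh, then 90.7 and 94.2 in CPIP+ETA. CPIP+ETA lay above CPIP+Veh in both libraries, at a fold of 1.10 (0.979 to 1.24; edgeR adjusted p = 0.938), while sham overlapped both.

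Over the whole set, edgeR called 0 of the 9 members in CPIP+Veh against Sham+Veh, where it called 3 of 15531 genes (0.0193%). At an unadjusted p under 0.05 there were also 0 members, against 4.94% of all genes, and DESeq2 and limma-voom each called 0. The median log2 fold change of the members was -0.08, against -0.00 over all genes, with 2 members above 0 where 49% of all genes were. That count was 1 without Sham+Veh 1, 4 without Sham+Veh 2 and 3 without CPIP+Veh 1, where the median was -0.04. Over the alternative settings run, the log2 fold change of Kcna4 in this comparison ran from -0.26 to -0.07. Groups did not overlap in 4 members, 1 higher (17.6% of all genes) and 3 lower (19.5% of all genes). The 95% intervals, which are per gene and not adjusted for the number of genes, ran from a fold of 0.764 at the lowest (Kcnc1) to 1.45 at the highest (Kcnb2). The other members had tighter intervals, such as 0.835 to 1.03 for Kcnd1.

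CPIP+ETA against CPIP+Veh uses the same CPIP+Veh libraries from the other side. edgeR again called 0 members and 0 of all genes (0%), with 0 members at an unadjusted p under 0.05, against 5.15% of all genes. DESeq2 called 0 members over all genes, with 1 member, Kcna2, at an unadjusted p under 0.05 (2.62% of all genes), and limma-voom called 0, with 0 at that level. In edgeR, 1 member (Kcna2) was at that level with library totals as the only scaling (5.09% of all genes). Over the alternative settings run, log2 fold changes ran from 0.05 to 0.29 for Kcna1, 0.09 to 0.22 for Kcna2 and -0.004 to 0.30 for Kcnc1. All 9 members were above 0, where 49.6% of all genes were, with log2 fold changes of 0.03 to 0.17 and a median of 0.14. Also above 0 were 12 of the 14 other Kv1 to Kv9 genes tested and 12 of 16 further neuronal potassium channel genes. Of the large sensory neuron markers 8 of 10 were above 0 (median 0.08), of the nociceptor markers 6 of 9 (median 0.08) and of the general neuron markers 3 of 8. Auxiliary subunit genes were above 0 in 8 of 13 cases, and genes of Kv1 anchoring and nearby nodal proteins in 9 of 12. Groups did not overlap in 5 members, Kcna1, Kcna2, Kcna4, Kcnd3 and Kcns1, all higher (15.7% of all genes), and in 0 lower (16.9% of all genes). The members' count above 0 rests in part on CPIP+ETA 1: without that library 6 of 9 members were above 0 and the median was 0.05. Intervals ran from a fold of 0.809 (Kcnb2) to 1.38 (Kcnc1).

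Against sham, CPIP+ETA gave 0 members called of 9 (0.0193% of all genes) and 0 at an unadjusted p under 0.05 (6.37% of all genes), and DESeq2 and limma-voom called 0. All 9 members overlapped between these groups, where 35.7% of all genes did not, and 7 lay above 0 (49.3% of all genes). This last count was 4 without CPIP+ETA 1. Over the alternative settings run, log2 fold changes in this comparison ran from 0.05 to 0.28 for Kcna1 and from 0.005 to 0.18 for Kcnd3. With both CPIP groups set against sham, which shares all its libraries with the comparisons above, 0 members were called (0.0193% of all genes), 0 passed an unadjusted p under 0.05 (6.1% of all genes), 0 did not overlap (15.8% of all genes) and 5 lay above 0 (48.9% of all genes). The log2 fold change of Kcna1 in that comparison ran from 0.02 to 0.14 over the alternative settings. The test over the 3 groups at once called 0 members (0.00644% of all genes), with 0 at an unadjusted p under 0.05 (5.52% of all genes). The smallest adjusted p was 0.909, shared by several members, and Kcna2 had the lowest p before adjustment.

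**Figure D2:**
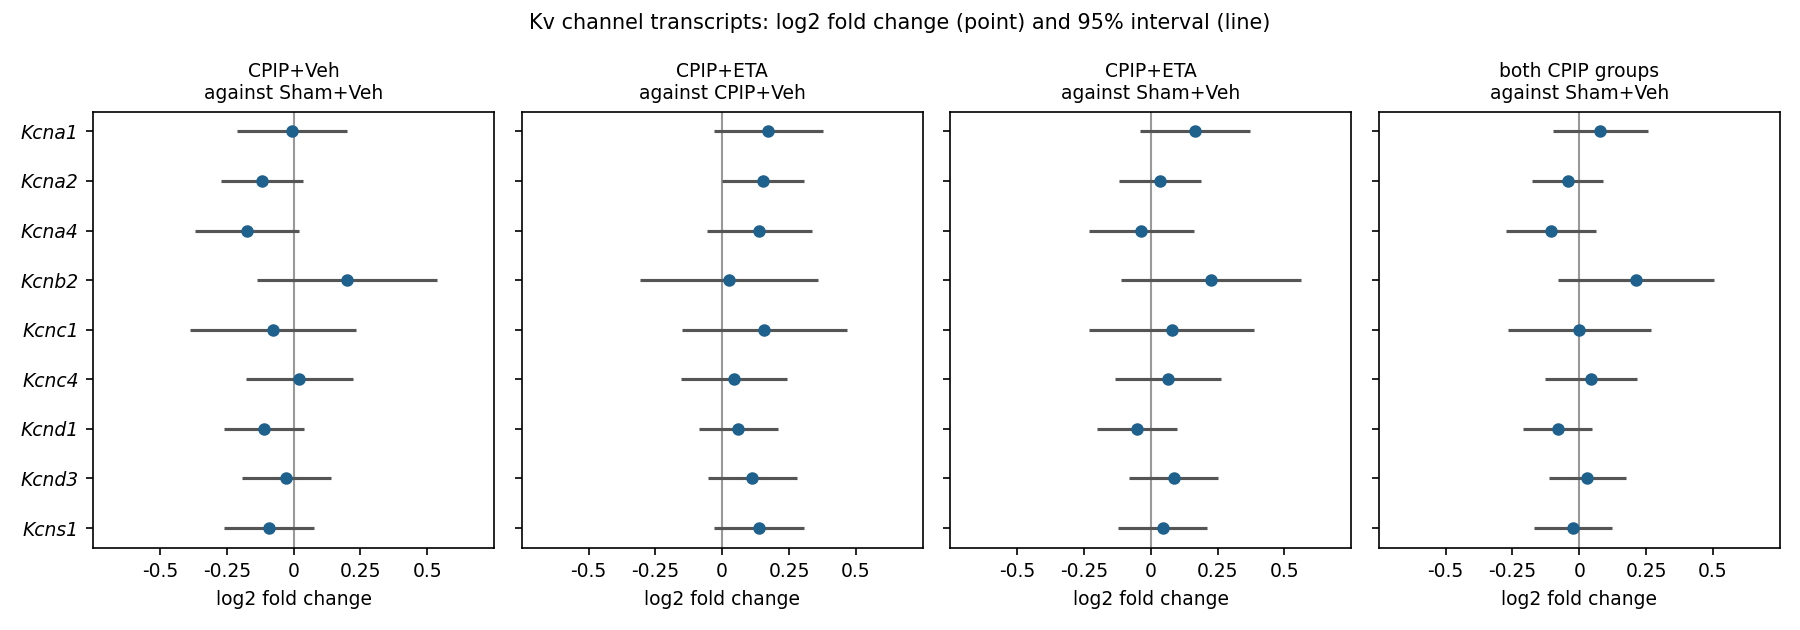
Log2 fold change (point) and 95% interval (line) of each Kv gene on the x axis in 4 comparisons, from 1 edgeR fit of 6 libraries. Every interval crosses 0, and the widest, for Kcnb2, reaches 0.56 in CPIP+ETA against Sham+Veh.

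The members varied from library to library about as much as the typical tested gene. The highest library exceeded the lowest by 1.13-fold (Kcnd1) to 1.39-fold (Kcnb2), with a median of 1.21-fold, against a median of 1.23-fold over the tested genes with no library at 0. CPIP+ETA 1 was the highest library for 5 members, Kcna1, Kcna2, Kcnb2, Kcnc1 and Kcnc4, and CPIP+Veh 2 was the lowest for 4, Kcna2, Kcna4, Kcnd1 and Kcns1. Sham+Veh 1 went both ways, highest for 3 (Kcna4, Kcnd1 and Kcns1) and lowest for 3 (Kcna1, Kcnb2 and Kcnd3). The 9 members summed to 1205 and 1231 CPM in Sham+Veh, 1176 and 1116 in CPIP+Veh, against 1291 and 1201 in CPIP+ETA. The 2 CPIP+Veh libraries had the lowest sums. The members do not weigh alike in these sums: Kcna2 gave 468 to 564 CPM and Kcnd1 232 to 263 CPM.

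Among the neuronal markers, only the large sensory neuron sum had the same highest and lowest library as the members' sum. Such a sum follows its genes with the highest CPM, so the markers of a list do not weigh alike in it or in the ratios below. In CPIP+ETA against CPIP+Veh the large sensory neuron markers ran from -0.10 (Spp1) to 0.17 log2 units (Pvalb), with 8 of 10 above 0. The 10 large sensory neuron markers summed to 31269 and 29894 CPM in Sham+Veh, 30752 and 28861 in CPIP+Veh, then 33447 and 29641 in CPIP+ETA, highest in CPIP+ETA 1 and lowest in CPIP+Veh 2. The 8 general neuron markers summed to 12194 and 11969 CPM in Sham+Veh, 13021 and 13072 in CPIP+Veh, then 13073 and 12410 in CPIP+ETA, as high in CPIP+Veh as in CPIP+ETA 1. The members were also set per 1000 CPM of the 10 large sensory neuron markers. They stood at 38.5 and 41.2 CPM in Sham+Veh, 38.3 and 38.7 in CPIP+Veh, against 38.6 and 40.5 in CPIP+ETA. The ranges of all 3 groups overlapped. Per 1000 CPM of the 8 general neuron markers the members stood at 98.8 and 102.9, 90.3 and 85.4, and 98.8 and 96.8. Both CPIP+Veh libraries were lowest. Of these 8 markers 5 lay above 0 and 3 below in CPIP+Veh against Sham+Veh, from -0.19 (Rbfox3) to 0.18 log2 units (Prph). edgeR called 0 of them there and DESeq2 called 1. The part of the markers in this ratio was not tested. Schwann cell myelin markers, 7 genes, summed to 9524 CPM in CPIP+ETA 1 and to 11611 to 14335 in the other 5 libraries, the opposite direction. The 9 nociceptor markers summed to 3803 to 3966 CPM in all 6 libraries, at 3919 in CPIP+Veh 2 and 3833 in CPIP+ETA 1. Within that sum, 6 of the 9 lay above 0 in CPIP+ETA against CPIP+Veh, from -0.20 (Tac1) to 0.17 log2 units (Mrgprd). Vessel and connective tissue markers lay mostly below 0 in CPIP+Veh against Sham+Veh: 6 of 6 for endothelium, 5 of 6 for smooth muscle and pericyte and 6 of 6 for fibroblast. Of those below 0, 4, 4 and 2 had an unadjusted edgeR p under 0.05, against 4.94% of all genes in either direction. edgeR called 0 of these markers in every comparison, and DESeq2 called at most 2 of a list. The 6 fibroblast markers summed to 3618 and 3861 CPM in Sham+Veh, 2843 and 3473 in CPIP+Veh, then 2299 and 2925 in CPIP+ETA. The 6 smooth muscle and pericyte markers summed to 169.7 and 165 CPM in Sham+Veh and to 119 to 143 in the 4 CPIP libraries, and the 6 endothelium markers to 157 and 163 and to 124 to 146. The 4 red blood cell markers ran from 28.1 CPM in CPIP+Veh 1 to 308 in CPIP+ETA 1. The part of cell composition in the members' values was not tested.

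**Figure D3:**
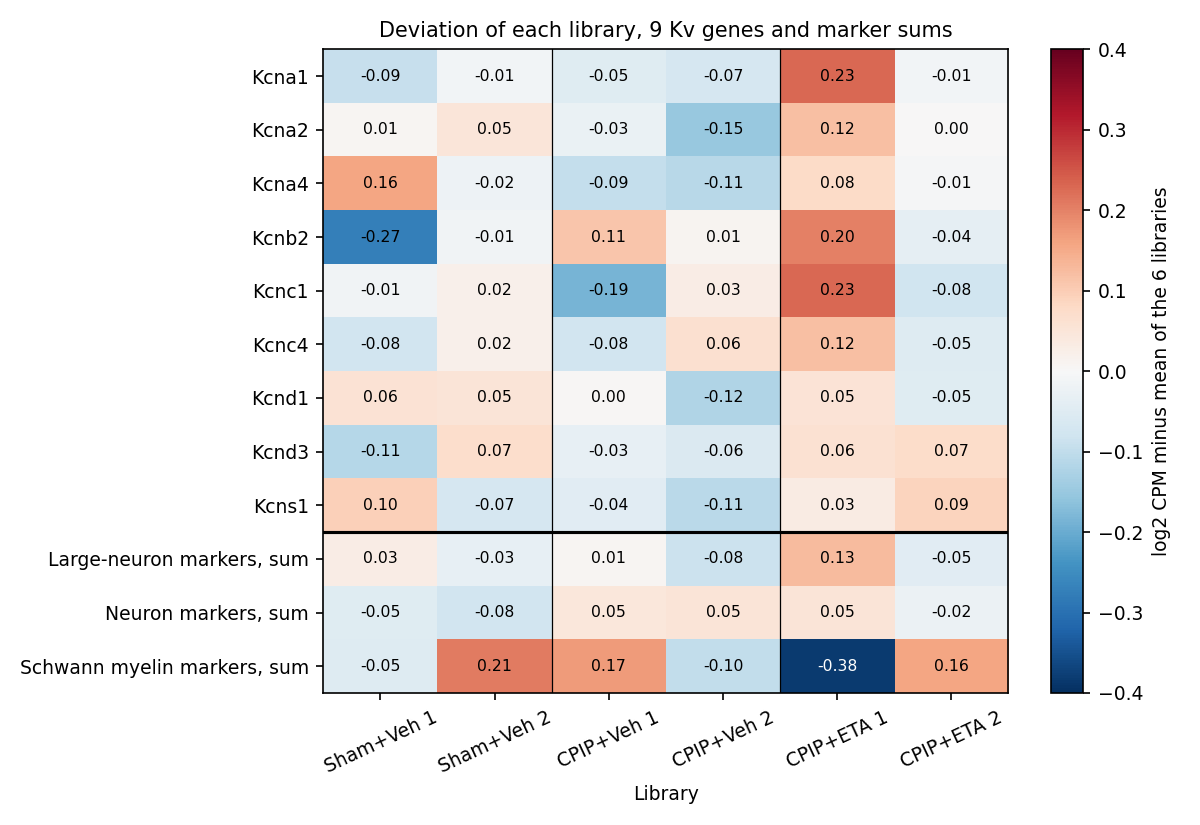
Deviation of each library (columns) from the mean of the 6 libraries in log2 CPM, for the 9 Kv genes and for the summed CPM of 3 marker lists (rows below the line); red is higher and blue lower. CPIP+ETA 1 is above the mean for all 9 Kv genes and for the large-neuron markers and lowest for the Schwann myelin markers.

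Injury markers of sensory neurons were read in the same libraries. Of 10 such genes 9 were tested, and all 9 lay above 0 in CPIP+Veh against Sham+Veh, with a median log2 fold change of 1.2 and 8 at an unadjusted p under 0.05, against 4.94% of all genes. edgeR called 0 of them over all genes and DESeq2 called 2. Their sum was 428 and 379 CPM in Sham+Veh, 471 and 647 in CPIP+Veh, then 388 and 458 in CPIP+ETA, highest in CPIP+Veh 2. The 6 skeletal muscle markers were also above 0 in all 6 cases, with a median of 1.28, and summed to 15.6 and 26.5 CPM in Sham+Veh, 15.7 and 76.5 in CPIP+Veh, then 9.97 and 43.3 in CPIP+ETA. Csrp3, a gene of the injury list that muscle also expresses, had a log2 fold change of 3.57 (SE 0.79). The part of muscle RNA in the injury values was not tested. Sox11, a transcription factor of axon regrowth, had a log2 fold change of 0.87 (SE 0.20) and was not called (edgeR adjusted p = 0.711). The highest of the members' values there was 0.20 (SE 0.14), for Kcnb2. The list was chosen with earlier results of these libraries known and stands here only as a scale for the Kv values.

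Among the other 18 family members 14 passed the filter on low counts. The remaining 4, Kcna7, Kcna10, Kcng3 and Kcns2, had 0 to 10 reads per library and were not tested. edgeR called 0 of the 14 in every comparison, with medians of -0.12 in CPIP+Veh against Sham+Veh, 0.10 in CPIP+ETA against CPIP+Veh and -0.03 in CPIP+ETA against Sham+Veh. DESeq2 also called 0 in those comparisons.

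Kcnv1 and Kcnf1, both of which encode subunits that are silent alone, were among those with the lowest p over the 3 groups. Kcnv1 was at 22.9 and 22.3 CPM in Sham+Veh, 18.7 and 20.6 in CPIP+Veh, then 20.8 and 21.3 in CPIP+ETA, lowest in CPIP+Veh, with a log2 fold change of -0.20 (SE 0.09) against sham. Kcnf1 was at 15.3 to 16.2 CPM in 5 libraries and at 20.9 in CPIP+ETA 1, the same library that stood out for Kcna1. Neither passed (edgeR adjusted p = 0.909 over the 3 groups for both).

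Of 15 genes of auxiliary subunits that bind Kv channels 13 were tested and 0 were called by edgeR in any comparison, with medians of -0.08, 0.09 and 0.01 log2 units in CPIP+Veh against Sham+Veh, CPIP+ETA against CPIP+Veh and CPIP+ETA against Sham+Veh. The widest values belonged to thinly counted genes. Kcnip2, a Kv4 partner with 24 to 77 reads per library, had log2 fold changes of 0.46 (SE 0.52) in CPIP+Veh against Sham+Veh and -0.49 (SE 0.52) in CPIP+ETA against CPIP+Veh. Kcne2, with 18 to 50 reads, had -0.62 (SE 0.51) in CPIP+ETA against Sham+Veh. Kcnip3, a calcium-binding partner of Kv4 channels that is also known as the transcriptional repressor DREAM, had the lowest p. It stood at 229.6 and 244 CPM in Sham+Veh, 217 and 173 in CPIP+Veh, against 228 and 197 in CPIP+ETA, with CPIP+Veh below sham but 1 of its libraries far from the other (log2 fold change -0.28, SE 0.12). Kcnip1, a further Kv4 partner, was at 63.7 and 57.7, 53.1 and 58.9, and 65.0 and 61.1 CPM in the same order. Kcnab2, a beta subunit of Kv1 channels, was at 970.2 and 951 CPM in Sham+Veh and 908 and 924 in CPIP+Veh. It was at 1052 and 949 CPM in CPIP+ETA, so lowest in CPIP+Veh as Kcna2 was. Its log2 fold change in CPIP+Veh against Sham+Veh was -0.07 (SE 0.06). Of the other beta subunit genes, Kcnab1 went the other way there at 0.07 (SE 0.07), and the thinly counted Kcnab3 had -0.05 (SE 0.44).

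Genes of proteins that hold Kv1 channels beside the node and at the synapse, listed with paranodal genes such as Cntn1, gave no called difference. All 12 such genes were tested, 0 were called, and their log2 fold changes ran from -0.12 to 0.11 in CPIP+Veh against Sham+Veh. Epb41l3, the scaffold 4.1B, was at 1242 and 1239 CPM in Sham+Veh, 1332 and 1257 in CPIP+Veh, against 1378 and 1283 in CPIP+ETA. Dlg2, the scaffold PSD-93, had a log2 fold change of 0.08 (SE 0.06) in CPIP+Veh against Sham+Veh, and Cntn1, the paranodal adhesion protein contactin, had 0.10 (SE 0.06).

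Genes reported in rodent work to control Kv transcription in injured sensory neurons were read as a list of 9, including Rest, Ehmt2 (the histone methyltransferase G9a) and Dnmt3a. All 9 were tested and 0 were called, with a median log2 fold change of 0.02 in CPIP+Veh against Sham+Veh, 0.01 in CPIP+ETA against CPIP+Veh and 0.01 in CPIP+ETA against Sham+Veh. Mzf1, a zinc finger factor reported to drive an antisense transcript of Kcna2 in rat, had the lowest p. It stood at 14.2 and 16.5 CPM in Sham+Veh, 17.3 and 15.2 in CPIP+Veh, then 13.2 and 11.8 in CPIP+ETA. Both CPIP+ETA libraries were below the other 4, with a log2 fold change of -0.38 (SE 0.12; edgeR adjusted p = 0.938) against CPIP+Veh and -0.30 (SE 0.12; edgeR adjusted p = 0.781) against sham, neither called. The methyltransferase Dnmt1 and the Rest partner Rcor1 were next, at 0.08 (SE 0.09) and -0.07 (SE 0.07) in CPIP+Veh against Sham+Veh.

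Of 16 further neuronal potassium channel genes all were tested and 0 were called. Kcnq5, a subunit of the M-current, was at 66.5 and 62.7 CPM in Sham+Veh, 54.8 and 48.7 in CPIP+Veh, against 61.8 and 45.8 in CPIP+ETA, below sham in all 4 CPIP libraries but not called (log2 fold change -0.32, SE 0.14; edgeR adjusted p = 0.938 in CPIP+Veh against Sham+Veh). Kcnk18, the two-pore channel TRESK, was at 5.74 and 6.84, 6.68 and 7.36, and 7.65 and 8.11 CPM in the same order, and Kcnma1, the large-conductance calcium-activated channel, ran from 19.5 to 22.3 CPM.

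**Figure D4:**
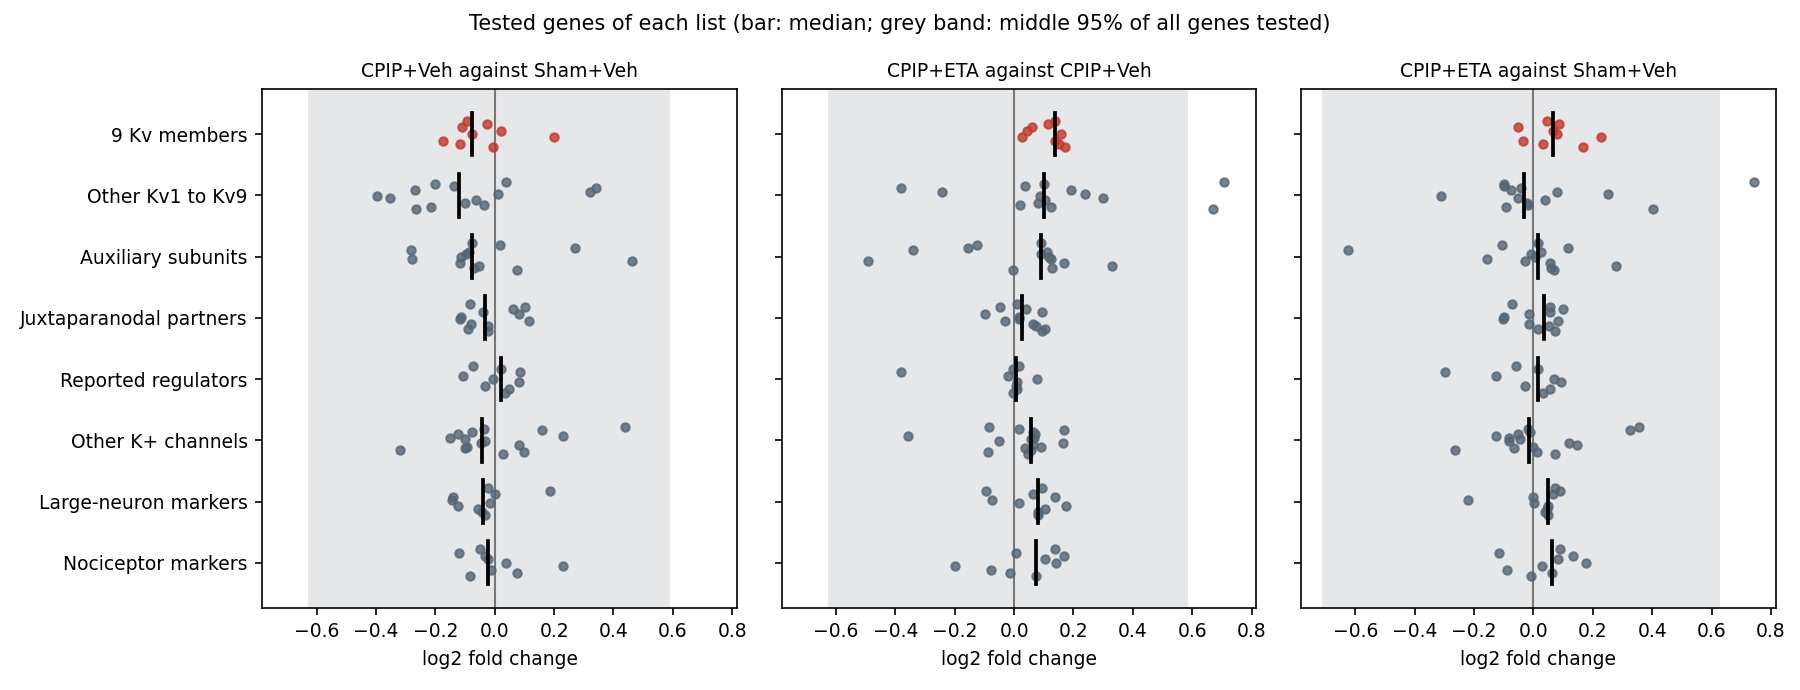
Log2 fold change (x axis) of every tested gene of each list in 3 comparisons; the black bar is the list's median and the grey band holds the middle 95% of all genes tested, -0.62 to 0.59 in CPIP+Veh against Sham+Veh. The 9 Kv members (red) lie inside the band in each comparison, and Kcnv2 and Kcna3 (thinly counted, at most 2.32 CPM) are the family genes beyond 0.6 with etanercept.

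The genes whose profile over the 6 libraries was most like that of Kcna2, the member with the lowest p over the 3 groups, were Aff2, Plcb1, Osbpl10, Larp6 and Lrrk2. Likeness was the mean absolute difference of log2 CPM after each gene was centred on its own mean, over 11209 genes with a mean of at least 5 CPM, and these 5 differed from Kcna2 by 0.02 log2 units each, against a median of 0.09 over all genes compared. Lrrk2, a kinase, for example, was at 65.5 and 65.8 CPM in Sham+Veh, 64.6 and 59.0 in CPIP+Veh, then 73.6 and 67.3 in CPIP+ETA, with the same highest and lowest libraries as Kcna2. Among the other members, Kcnd1 was nearest to Kcna2 (0.04) and Kcnb2 farthest (0.13).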

How the data were processed

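RNA sequencing of 6 rat DRG libraries was read from 1 deposited table. The authors deposited a table of expected counts per gene; that unit was read from the values, of which 32.7% were exactly whole (zeros included, blank cells left out) and whose totals differed between libraries. Per the labels' protocols, Trizol RNA of high integrity was sequenced on the BGISEQ-500, and per the submitters' processing notes the build was Rnor_6.0. The extraction protocol names both the BGISEQ-500 and Illumina library protocols, and which of them was used is not clear from it. The aligner, counting program, annotation and strand setting were not given in the sources read. Columns were matched to samples by title, and 2907 genes that were blank in every library were read as 0.

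Counts were rounded and tested in R 4.3.3 by edgeR 4.0.16 (quasi-likelihood F-test), fitting the 6 libraries together by group without a covariate. Genes were kept by filterByExpr (minimum count 10, minimum total count 15) and scaled by TMM, and p-values were adjusted by Benjamini-Hochberg over 15531 genes, with calls at an adjusted p under 0.05. Residual degrees of freedom were 3, the prior ones 3.64, and the biological coefficient of variation was 10.3%. The standard error (SE) was obtained from the log2 fold change and F (change over root F), and 95% intervals use the t distribution with the fit's total degrees of freedom. Levels are TMM-scaled CPM, and levels of different genes were not compared because no transcript lengths were used. All tests were two-sided. The procedure was checked on simulated data.

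Members and lists were chosen with earlier results of these data known. Beyond the members, the 3 genes with the lowest p over the 3 groups were named in each list, except 1 gene that is not reported here, and other genes were named after their values were seen. Alternatives were run with DESeq2 1.42.0 and limma-voom (limma 3.58.1), other scalings and filters, only the libraries compared, a block on the title number, a looser adjusted p of 0.1, and fits that dropped 1 library at a time, where the remaining library of that group was assumed to vary like the other groups. All 27 Kv identifiers matched RefSeq's GRCr8 gene table with the same symbol. That assembly differs from the build of the data, so it gave only names and the printed start-site windows. Figures were drawn with matplotlib 3.10.9.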

Additional observations from a re-analysis of the deposited data

How the results depend on the processing

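0 of 9 members were called in each comparison under every alternative run: over 531 recomputed log2 fold changes the smallest adjusted p was 0.305, without CPIP+ETA 2, and the largest shift was 0.16. The sign changed in 26 of the 531 values, all uncalled. Kcna1 had 0.0031 in CPIP+Veh against Sham+Veh under upper-quartile scaling, and Kcnc1 had -0.0047 with library totals and -0.0039 with limma-voom in both CPIP groups against Sham+Veh. For the other sign changes, the log2 fold changes with 1 library left out gave these ranges. In CPIP+Veh against Sham+Veh they were Kcna1 -0.0397 to 0.0360, Kcnc1 -0.190 to 0.0270, Kcnc4 -0.0507 to 0.0914 and Kcnd3 -0.109 to 0.0699. In CPIP+ETA against CPIP+Veh they were Kcnb2 -0.0952 to 0.138, Kcnc1 -0.00433 to 0.302 and Kcnc4 -0.0427 to 0.127. In CPIP+ETA against Sham+Veh they were Kcna2 -0.0187 to 0.0943, Kcna4 -0.119 to 0.0658, Kcnc1 -0.0778 to 0.228, Kcnc4 -0.0164 to 0.153, Kcnd1 -0.0956 to 0.00297 and Kcns1 -0.0314 to 0.136. In both CPIP groups against Sham+Veh they were Kcnc1 -0.0756 to 0.0774, Kcnd3 -0.0520 to 0.127 and Kcns1 -0.101 to 0.0668. The causes were not tested.

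The number of genes called over the whole table depended on the tool. DESeq2 called 49 genes in CPIP+Veh against Sham+Veh, 21 in CPIP+ETA against CPIP+Veh, 50 in CPIP+ETA against Sham+Veh, 40 in both CPIP groups against Sham+Veh and 77 over the 3 groups, where edgeR called 3, 0, 3, 3 and 1. In CPIP+ETA against Sham+Veh limma-voom called 1 and the fit of only the libraries compared called 1. Over the 3 groups RLE, upper-quartile and library-total scaling and no filter each gave 2, and an adjusted p under 0.1 gave 3. With 1 library left out the counts were 1 to 3, 0, 1 to 2, 1 to 3 and 1 to 2. The causes were not tested.

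The title numbers showed no large shared deviation: the deviations of same-numbered libraries correlated at 0.0345, -0.106 and 0.0503 between the 3 pairs of groups. These values cannot tell whether libraries of the same number were paired by design. A replicate block on that number gave 3, 0, 3, 3 and 1 genes called and 0 members in each comparison. With it 1 member (Kcna2) was at an unadjusted p under 0.05 in CPIP+ETA against CPIP+Veh (5.78% of all genes). With 2 libraries a group, each interval rests on few libraries, and Kcnb2 had only 156 to 233 reads per library.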
